A study of Homo sapiens with 10 samples.

Results

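The early response of a synovial sarcoma line to WA-68, a degrader of the chromatin reader BRD9, was read from 4 of the 10 RNA-seq libraries of a time course: the 2 libraries of HS-SY-II cells given 100 nM WA-68 for 12 h and the 2 libraries given DMSO, the vehicle. All 10 libraries came from the HS-SY-II line, and WA-68 was also sampled at 24, 48 and 96 h, with 2 libraries at each time. The labels call the libraries of a group biological replicates of this 1 line and give no harvest time for DMSO, so the time that the DMSO cells spent in culture cannot be told apart from the treatment. The 4 libraries were taken by their labels, with every gene of the count table in view.

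BRD9 is a bromodomain protein that belongs only to the non-canonical BAF complex, one of the ATP-dependent chromatin remodellers. Synovial sarcoma is driven by a fusion of the BAF subunit SS18 to an SSX protein, and the fusion protein enters BAF complexes and keeps developmental genes open. A degrader of the PROTAC type joins its target to an E3 ubiquitin ligase, so it removes protein and need not change the target's messenger RNA.

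BRD9 itself (ENSG00000028310, GRCh38 chr5:850291-892824, minus strand) stood at 100.1 and 108 CPM (counts scaled to the effective size of each library) in the DMSO libraries and at 95.6 and 92.8 CPM at 12 h. Both 12 h values lay below both DMSO values, but the log2 difference of -0.14 (SE 0.09, adjusted p = 0.479) did not pass the threshold, an adjusted p under 0.05. The libraries held 7349744 to 13200051 counts, and the DMSO libraries were 13200051 and 8830910 deep. The 14 markers of the synovial sarcoma line summed to 1990.0 and 2153 CPM in DMSO. At 12 h they summed to 1957 and 1954 CPM, slightly below both DMSO sums. VIM alone gave 12211 of the 25668 marker counts in DMSO replicate 1. KRT7 was at 0, EPCAM and CTAG1B held 0 or 1 count a library, and KRT8, KRT18 and KRT19 held 6 to 20. The 8 leukocyte markers, of which 3 were at 0, summed to 0.354 to 0.543 CPM in DMSO and 0.115 to 0.223 CPM at 12 h. These leukocyte sums are 1 to 7 counts a library. The part of these sums in the results was not tested. DMSO replicate 2 and 96 h replicate 2 stood apart from the other libraries on the second principal component, and the difference between the DMSO replicates followed the genes' GC content (Spearman correlation 0.571 over 15694 genes), against -0.059 for the 12 h replicates. Fewer cells of a kind and less RNA per cell cannot be told apart in such bulk libraries.

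At 12 h 201 of 16382 genes tested were called higher (1.23%) and 315 lower (1.92%), 516 in all (3.15%). The changes were mostly small. Genes called higher had a median of 0.59 on the log2 scale, a 1.5-fold difference, and those called lower a median of -0.49, a 1.41-fold difference. At least a 2-fold change was found for 33 of the genes higher (0.201%) and 37 of those lower (0.226%). The count leant on each 12 h library: 34 genes were called higher and 68 lower without 12 h replicate 1, and 58 and 74 without 12 h replicate 2. Leaving out DMSO replicate 1 gave 235 and 533. With DMSO replicate 2 and 96 h replicate 2 both left out 489 were higher and 650 lower, and with a GC offset 481 and 780. Scaling by library size alone put 62.4% of the calls on the higher side, against 39.0% here. A smaller group of 71 genes, 25 higher and 46 lower, kept its call whichever of the 10 libraries was left out, and the accounts below begin with these genes, called here the steady ones.

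**Figure D1:**
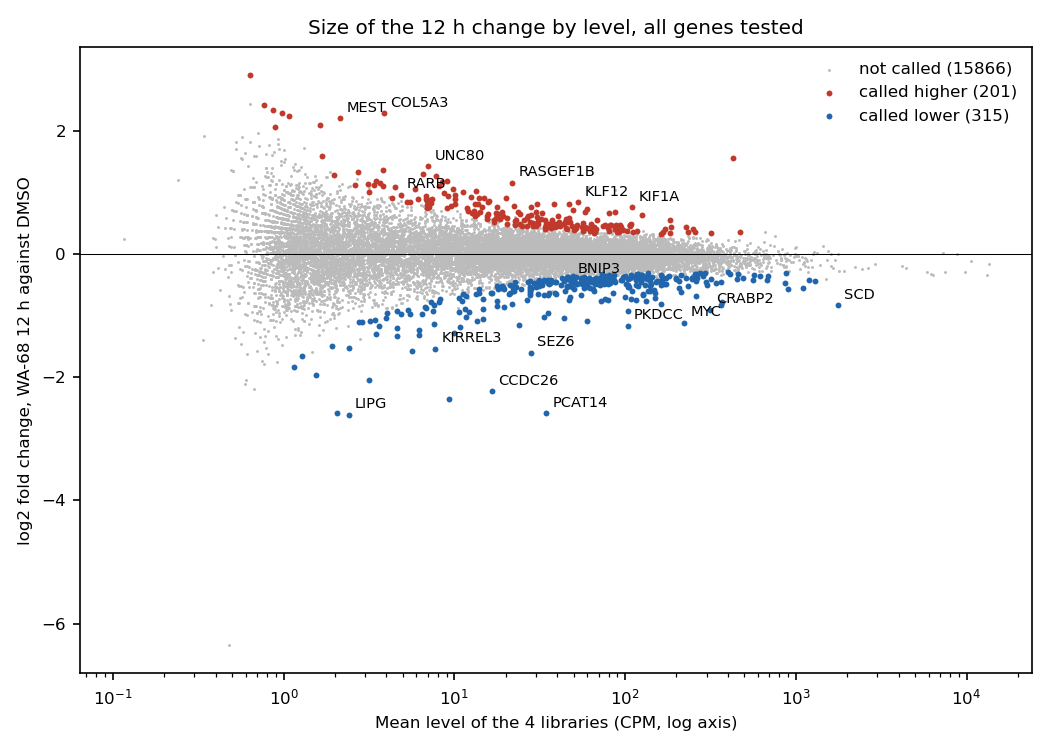
Each point is 1 of the 16382 genes tested, with its mean level over the 4 libraries in CPM on a log axis and its log2 fold change at 12 h against DMSO. Red points are the 201 genes called higher and blue points the 315 called lower; most lie within 2-fold of the DMSO level.

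The steady genes were spread over many functions. PCAT14, a long non-coding RNA, fell from 58.0 and 60.0 CPM to 9.28 and 10.3 CPM, and PKDCC, a secreted tyrosine kinase of the skeleton, from 139.7 and 148 CPM to 59.2 and 68.8 CPM. RASGEF1B, an exchange factor for Rap and Ras GTPases, rose from 14.9 and 11.9 CPM to 27.7 and 33.0 CPM. Both 12 h libraries lay above both DMSO libraries in 21.4% of all genes tested and below them in 22.1%, and called genes were chosen on these same libraries, so nothing is read from their separation. In 1 called gene the 12 h libraries overlapped the DMSO libraries: RN7SL3, an RNA of the signal recognition particle, stood at 171 and 263 CPM in DMSO and 1094 and 178 CPM at 12 h. Its log2 difference of 1.56 turned to -0.27 without 12 h replicate 1. The call was lost without DMSO replicate 1 or 12 h replicate 1, by DESeq2, or by limma-voom (adjusted p of up to 0.632, all alternatives 3.28e-61 to 0.632).

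**Figure D2:**
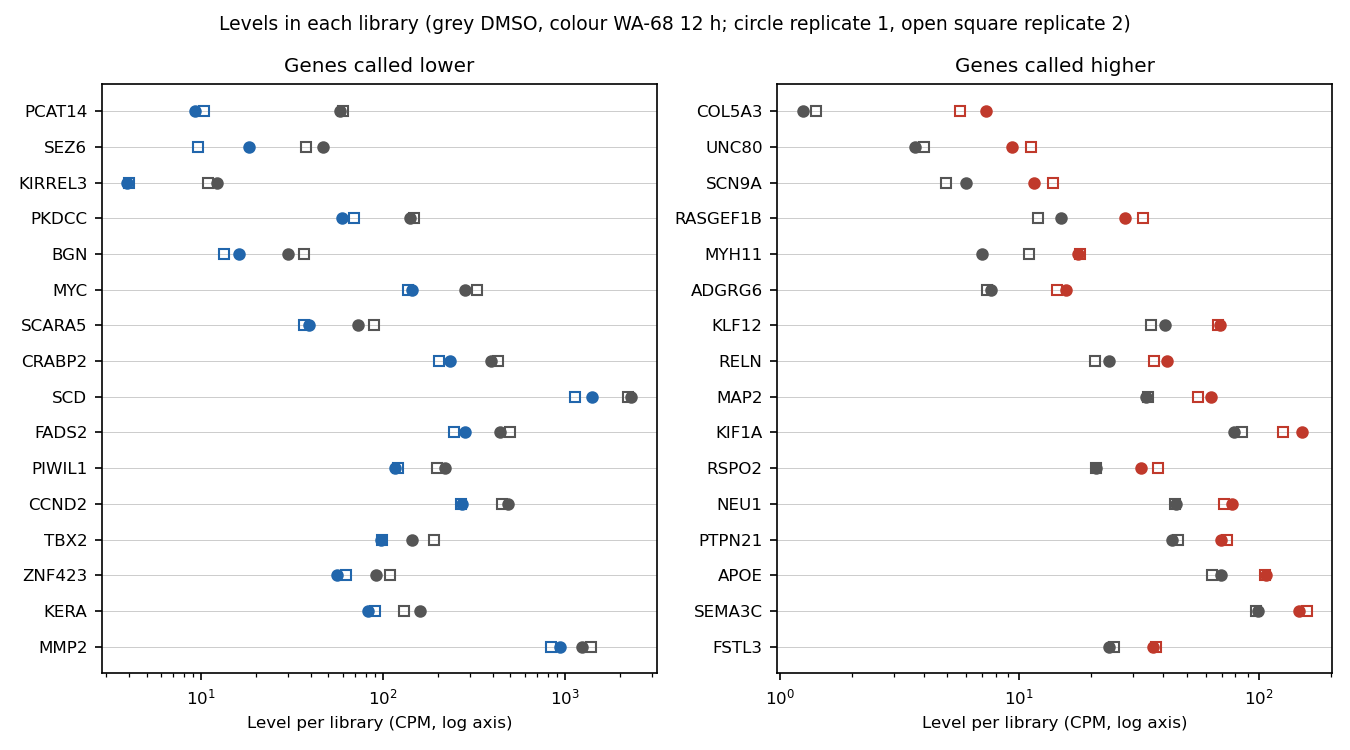
Levels in CPM, on a log axis, of 16 genes called lower (left) and 16 called higher (right) from the steady genes. Grey marks are DMSO and coloured marks 12 h of WA-68, with circles for replicate 1 and open squares for replicate 2. The genes were called on these same libraries, so the gap between the grey and coloured marks is no separate result.

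Genes that build ribosomes were called on the lower side only. MYC, the transcription factor that drives cell growth genes, went from 280.5 and 329.8 CPM to 144 and 136 CPM. MYBBP1A, a nucleolar partner of RNA polymerase I, fell from 152 and 176 CPM to 112 and 103 CPM, a log2 difference of -0.61 (SE 0.09, adjusted p = 5.12e-04), and SNHG4, a host gene of small nucleolar RNAs, fell from 62.3 and 55.7 CPM to 36.5 and 36.0 CPM, -0.71 (SE 0.11, adjusted p = 5.60e-04). All of these were steady. Of 62 tested genes for ribosomal RNA processing, 17 fell and 0 rose (27.4%, against 3.15% of all genes tested). In this list 61 had a negative value, and the median was -0.26 against 0.00 for all genes. The median was negative under every scaling, while the count of members that fell was 0 without 12 h replicate 2, 1 without 12 h replicate 1, 6 with scaling by library size alone, 10 by DESeq2, 11 without DMSO replicate 2, without 24 h replicate 2 and without 48 h replicate 2, 27 without DMSO replicate 2 and 96 h replicate 2 together and 33 with a GC offset. Of 23 snoRNA host genes 6 fell (26.1%, against 3.15% of all genes tested), with a median of -0.33. This count was 2 without 12 h replicate 1 and without 12 h replicate 2, 10 without DMSO replicate 2 and 96 h replicate 2 together and 11 with a GC offset.

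Single members changed by less than 2-fold. NOLC1, a chaperone of snoRNPs, stood at 271 and 282 CPM in DMSO and 198 and 186 CPM at 12 h (-0.52), and WDR43, a subunit of the small-subunit processome, at 144 and 141 CPM and 107 and 101 CPM (-0.46). LTV1, which helps the small subunit leave the nucleus, went from 26.7 and 27.7 CPM to 19.2 and 18.3 CPM (-0.53). The calls were lost for NOLC1 without 12 h replicate 2 (adjusted p = 0.065, all alternatives 2.99e-06 to 0.065), WDR43 without 12 h replicate 1 or 2 (adjusted p = 0.0635 and 0.159, all alternatives 9.61e-05 to 0.159) and LTV1 without 12 h replicate 1 or 2, by DESeq2, or with library size only (adjusted p of up to 0.211, all alternatives 0.00283 to 0.211). The cytosolic ribosomal proteins moved less: 74 of 75 had a negative value with a median of -0.14, and 2 fell (2.67%, against 3.15% of all genes called), among them RPL23 (-0.33). Their count was 0 with scaling by library size alone, with upper-quartile factors, without 12 h replicate 1, without 12 h replicate 2, without 24 h replicate 1, without 24 h replicate 2 and without 48 h replicate 2, 1 without DMSO replicate 1 and without DMSO replicate 2 and 12 without DMSO replicate 2 and 96 h replicate 2 together and with a GC offset. The call for RPL23 was lost without DMSO replicate 1, 12 h replicate 1 or 2, 24 h replicate 1 or 2 or 48 h replicate 2, with library size only, or with upper-quartile factors (adjusted p of up to 0.3, all alternatives 0.0016 to 0.3). This gene has processed pseudogenes whose reads the counting could have shared.

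Some genes for ribosomal RNA processing carry the letters CACGTG, the E-box that MYC with MAX can bind, close to where their transcripts start. The stretches of 30 bases shown here, from RefSeq promoter windows on GRCh38.p14, centre on that hexamer, which is in capitals, and are given because this sequence lies in 5 of the 12 rRNA processing genes that fell and had a window, and in MYBBP1A.
MYBBP1A, chr17:4555340-4555369, minus strand: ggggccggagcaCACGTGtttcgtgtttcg
WDR43, chr2:28894658-28894687, plus strand: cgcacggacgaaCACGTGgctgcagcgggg
LTV1, chr6:143843354-143843383, plus strand: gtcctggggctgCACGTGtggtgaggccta
PUS7, chr7:105522226-105522255, minus strand: gtcgctgcgccgCACGTGtgcgagcccggc
NOP14, chr4:2963374-2963403, minus strand: tccgcggcccggCACGTGtcttagggtagc
IMP4, chr2:130342900-130342929, plus strand: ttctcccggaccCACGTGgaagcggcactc

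In each of these 6 the hexamer begins 3 to 28 bases after the RefSeq start. PUS7, a pseudouridine synthase, changed by -0.41 on the log2 scale, and NOP14 and IMP4, both of the small-subunit processome, by -0.35 and -0.37. Their calls were lost for PUS7 without 12 h replicate 1 or 2 (adjusted p = 0.0913 and 0.251, all alternatives 1.52e-04 to 0.251), NOP14 without DMSO replicate 2, 12 h replicate 1 or 2, 24 h replicate 1 or 2 or 48 h replicate 1 or 2, by DESeq2, with library size only, or with only the 2 groups fitted (adjusted p of up to 0.359, all alternatives 0.00179 to 0.359) and IMP4 without DMSO replicate 2, 12 h replicate 1 or 2, 24 h replicate 1 or 2 or 48 h replicate 1 or 2, by DESeq2, with library size only, with only the 2 groups fitted, or with upper-quartile factors (adjusted p of up to 0.437, all alternatives 0.00446 to 0.437). CACGTG reads the same on both strands, and it was found in 23 of the 52 rRNA processing genes that had a 300-base window (44.2%), in 2 of 15 genes of the RNA polymerase I list (13.3%), in 1 of 19 snoRNA host genes (5.26%) and in 3 of 60 ribosomal protein genes (5.0%). The share was 10.2% of the 10803 tested genes with a window and 7.43% of all 27305 windows. Among genes called lower it was 12.3% and among those called higher 9.27%. These matches are letters in a window and were not tested as binding sites.

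Genes of nucleotide supply and sugar breakdown were called on the lower side only. NME1, a nucleoside diphosphate kinase, stood at 85.1 and 86.8 CPM in DMSO and 67.0 and 61.2 CPM at 12 h. PAICS, PFAS and GART, enzymes of purine synthesis, changed by -0.39, -0.38 and -0.33. These 4 were the only calls among 27 genes of purine and pyrimidine synthesis (14.8%, against 3.15% of all genes tested). The median of the 27 was -0.20. The number that fell was 0 without 12 h replicate 1 and without 12 h replicate 2, 1 with scaling by library size alone, 2 without 24 h replicate 2, 8 without DMSO replicate 2 and 96 h replicate 2 together and with no filter and 11 with a GC offset. Of 25 genes of glycolysis and the pentose phosphate pathway 5 fell (20%). The list had a median of -0.22 and 24 negative values. LDHA, lactate dehydrogenase, went from 518 and 511 CPM to 369 and 404 CPM (-0.41), and TKT, transketolase, from 183 and 225 CPM to 150.3 and 139 CPM (-0.49), calls lost for LDHA without 12 h replicate 1 (adjusted p = 0.197, all alternatives 1.03e-04 to 0.197) and TKT without DMSO replicate 2 or 12 h replicate 1 or 2 (adjusted p = 0.0922, 0.0772 and 0.197, all alternatives 4.43e-05 to 0.197). The number of glycolytic genes that fell was 0 without 12 h replicate 1, 2 without DMSO replicate 2 and without 12 h replicate 2, 3 with scaling by library size alone, without 24 h replicate 1 and without 24 h replicate 2, 8 with no filter and 9 with a GC offset and without DMSO replicate 1. All 13 transcripts of the mitochondrial genome that were tested had negative values, with a median of -0.30, yet edgeR called 0, DESeq2 0 and limma-voom 0, and 8 had an unadjusted p under 0.05. Calls on the lower side numbered 2 without DMSO replicate 2, 4 with a GC offset, 8 with only the 2 groups compared, 10 without DMSO replicate 2 and 96 h replicate 2 together and 12 with no filter, without 96 h replicate 1 and without 96 h replicate 2. TWNK, the helicase that copies mitochondrial DNA, was steady and fell from 241 and 276 CPM to 167 and 168 CPM (-0.62, SE 0.10, adjusted p = 4.07e-04). METTL8, which methylates mitochondrial transfer RNAs, fell from 81.4 and 77.8 CPM to 51.1 and 53.8 CPM (-0.60, SE 0.09, adjusted p = 5.35e-04).

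Fatty acid desaturases fell. SCD, which makes monounsaturated fatty acids, stood at 2314 and 2222 CPM in DMSO and 1413 and 1129.6 CPM at 12 h, a log2 difference of -0.84 (SE 0.09, adjusted p = 1.07e-05). FADS2, which opens the path to long polyunsaturated fatty acids, fell from 439.8 and 497 CPM to 281 and 245 CPM, -0.83 (SE 0.10, adjusted p = 1.17e-05). Both were steady. FADS1, the next desaturase of that path, changed by -0.46, and FASN, fatty acid synthase, by -0.44. DGAT2, which closes triglyceride synthesis, rose from 18.3 and 24.7 CPM to 32.3 and 32.5 CPM (0.62). These calls were lost for FADS1 without 12 h replicate 2 (adjusted p = 0.159, all alternatives 1.12e-05 to 0.159), FASN without DMSO replicate 2 or 12 h replicate 2 (adjusted p = 0.163 and 0.312, all alternatives 1.70e-07 to 0.312) and DGAT2 without DMSO replicate 1 or 12 h replicate 1 or 2 (adjusted p = 0.106, 0.094 and 0.0949, all alternatives 3.91e-05 to 0.106). In all 6 of 24 genes of fatty acid synthesis fell and 1 rose (29.2%, against 3.15% of all genes tested). The median of the list was -0.12. The number that fell was 2 without 12 h replicate 2 and 3 without DMSO replicate 2. Cholesterol synthesis had a median of -0.16 over 26 genes but 0 calls by edgeR, 0 by DESeq2 and 0 by limma-voom, with 8 at an unadjusted p under 0.05. The number of its genes that fell was 1 with no filter, with only the 2 groups compared, without DMSO replicate 1, without DMSO replicate 2, without 96 h replicate 1 and without 96 h replicate 2, 4 with a GC offset and 5 without DMSO replicate 2 and 96 h replicate 2 together, and the number that rose was 1 with a GC offset, with scaling by library size alone, with only the 2 groups compared, without 96 h replicate 1 and without 96 h replicate 2.

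Genes for the uptake of lipid and iron, picked after their values were seen, were called on both sides. LIPG, endothelial lipase, fell from 4.74 and 3.55 CPM to 1.01 and 0.345 CPM, the largest fitted fall among all calls at -2.61 (SE 0.43, adjusted p = 7.44e-04). SCARB1, the receptor for high-density lipoprotein, fell from 111 and 136 CPM to 79.1 and 72.6 CPM (-0.70, SE 0.11, adjusted p = 5.12e-04). SCARA5, a receptor for ferritin, fell from 73.1 and 88.7 CPM to 39.2 and 36.8 CPM (-1.08, SE 0.12, adjusted p = 1.16e-05). All 3 were steady. TFRC, the transferrin receptor, changed by -0.50, and LRP8, a receptor for apolipoprotein E and reelin, by -0.46. Both calls could be lost, for TFRC without DMSO replicate 1 or 12 h replicate 1 or 2 (adjusted p = 0.0638, 0.0873 and 0.144, all alternatives 6.39e-07 to 0.144) and LRP8 without 12 h replicate 1 or 2 (adjusted p = 0.0547 and 0.254, all alternatives 2.77e-04 to 0.254). Against these falls APOE, apolipoprotein E, was steady and rose from 69.3 and 64.1 CPM to 107 and 107 CPM (0.68, SE 0.10, adjusted p = 2.14e-04). ACADL, long-chain acyl-CoA dehydrogenase of fatty acid breakdown, rose from 11.8 and 10.8 CPM to 19.9 and 20.7 CPM (0.84, SE 0.14, adjusted p = 0.0011).

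A set of 3 genes that import, carry and break down retinoids fell. CRABP2, which carries retinoic acid to its nuclear receptors, went from 389 and 426 CPM to 232 and 204 CPM, -0.91 (SE 0.10, adjusted p = 1.07e-05). CYP26B1, which breaks retinoic acid down, went from 148 and 162 CPM to 103 and 94.4 CPM, -0.66 (SE 0.10, adjusted p = 5.93e-04). STRA6, the cell-surface importer of retinol, went from 156 and 182 CPM to 113 and 110.3 CPM, -0.60 (SE 0.10, adjusted p = 0.00124). All 3 were steady. RARB, a retinoic acid receptor, rose from 2.88 and 3.78 CPM to 5.93 and 6.78 CPM (0.96). Of the 16 retinoid genes listed 13 were tested, and these 4 were the ones called, against 3.15% of all genes tested. The median of the 13 was -0.18. This list was chosen with earlier results of these data known, so its count is a description only. In the wider list of 33 nuclear receptors and retinoid genes 4 fell and 1 rose (15.2%). Its median of 0.02 turned to -0.01 with a GC offset. The number that fell was 7 with no filter, without 96 h replicate 1 and without 96 h replicate 2 and 8 with a GC offset and without DMSO replicate 1. The remaining gene that fell was the orphan receptor NR5A2 (-0.40). Calls were lost for RARB without DMSO replicate 1 or 12 h replicate 1 or 2, or by DESeq2 (adjusted p of up to 0.233, all alternatives 0.00941 to 0.233) and NR5A2 without 12 h replicate 1 or 2 (adjusted p = 0.191 and 0.214, all alternatives 0.0015 to 0.214).

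Developmental transcription factors that changed mostly went down. TBX2, a T-box repressor active in limb and heart development, fell from 145 and 190.1 CPM to 97.7 and 98.7 CPM, -0.76 (SE 0.11, adjusted p = 1.95e-04). ZNF423, a zinc finger factor of neural and fat precursors, fell from 91.3 and 109 CPM to 56.0 and 62.2 CPM, -0.75 (SE 0.11, adjusted p = 2.15e-04). ETV4, an ETS factor downstream of FGF signals, fell from 123 and 148 CPM to 88.8 and 73.3 CPM, -0.74 (SE 0.11, adjusted p = 3.32e-04). These 3 were steady. KLF12, a Krüppel-like factor, was the steady riser among them, from 40.8 and 35.3 CPM to 69.2 and 67.8 CPM, 0.84 (SE 0.10, adjusted p = 1.94e-05). Its 12 h libraries lay within 2 CPM of each other.

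The lists of such factors held more calls on the lower side. The shares called were 14.3% of the homeobox and T-box list and 23.8% of the mesenchymal list, against 3.15% of all genes tested. Of 56 homeobox and T-box factors outside the HOX clusters 8 fell and 0 rose, with a median of -0.12. The number that fell was 2 without 12 h replicate 1 and without 12 h replicate 2, 4 by DESeq2 and 13 with a GC offset. Of 21 mesenchymal regulators 5 fell and 0 rose, with a median of -0.14, and here the number was 1 without 12 h replicate 1, 2 without 12 h replicate 2, 3 with scaling by library size alone and 8 with a GC offset. SNAI2, the repressor Slug, went from 174 and 181 CPM to 116 and 121 CPM (-0.59), and OSR1, a factor of kidney and joint precursors, from 22.4 and 28.1 CPM to 15 and 12.5 CPM (-0.86). MEOX1, a somite factor, went from 14.1 and 16.2 CPM to 7.60 and 8.50 CPM (-0.90). PAX2 (-0.63) and PRRX2 (-0.66) were among the homeobox genes that fell. A library left out ended the call for SNAI2 without 12 h replicate 1 (adjusted p = 0.0532, all alternatives 6.84e-07 to 0.0532), OSR1 without 12 h replicate 2 (adjusted p = 0.0678, all alternatives 3.15e-06 to 0.0678) and MEOX1 without 12 h replicate 1 (adjusted p = 0.113, all alternatives 9.41e-05 to 0.113). It did so too for PAX2 without 12 h replicate 1 (adjusted p = 0.0952, all alternatives 2.97e-04 to 0.0952) and PRRX2 without 12 h replicate 2 (adjusted p = 0.146, all alternatives 1.21e-04 to 0.146). Of the 26 HOX genes tested edgeR called 0, DESeq2 0 and limma-voom 0, and 4 had an unadjusted p under 0.05. The number of HOX genes called higher was 1 with a GC offset and without DMSO replicate 2 and 2 without DMSO replicate 2 and 96 h replicate 2 together.

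**Figure D3:**
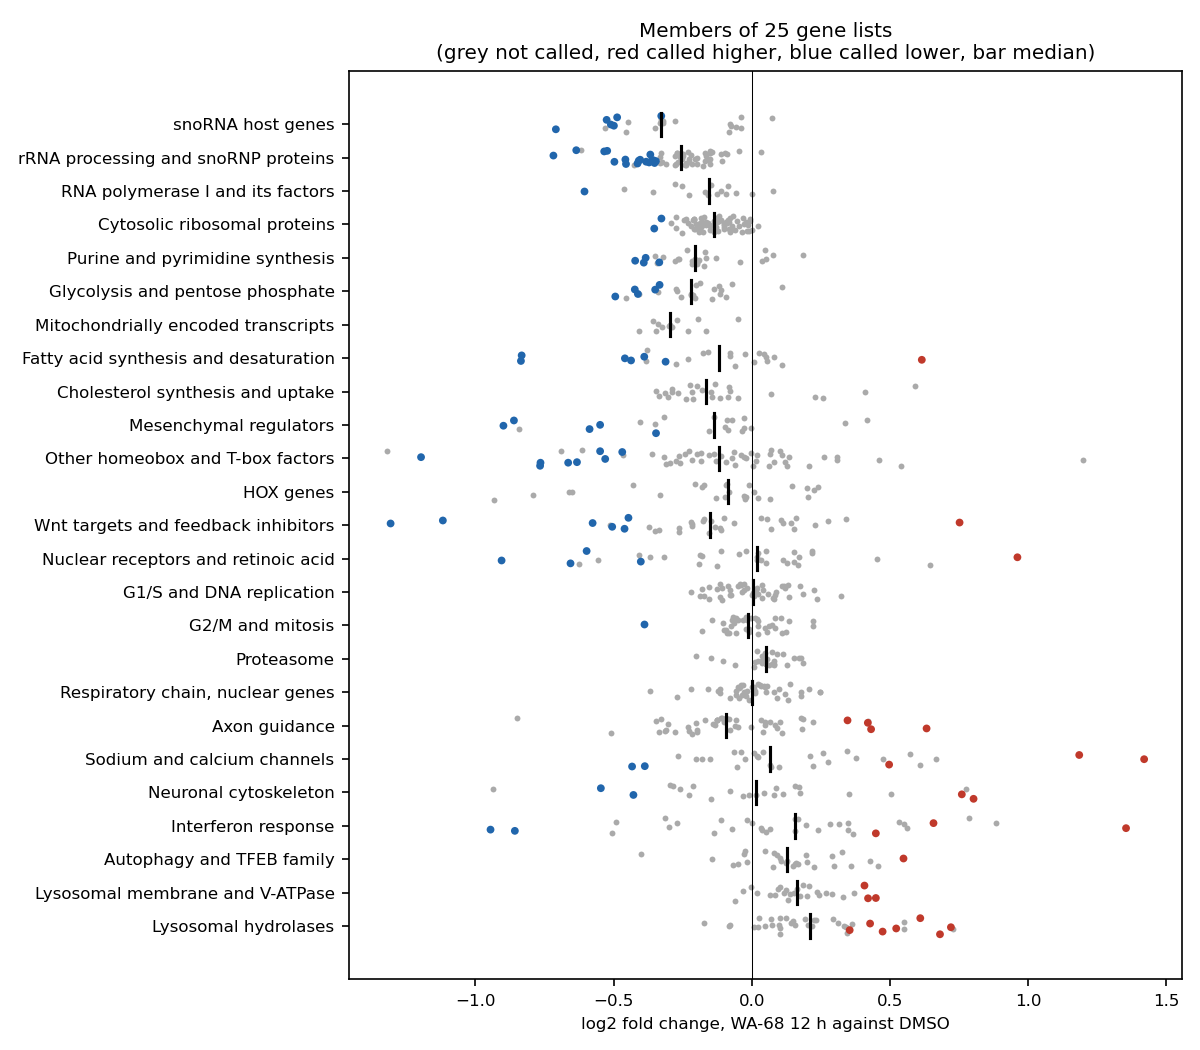
Log2 fold change at 12 h against DMSO of every tested member of 25 gene lists, one row per list. Grey points were not called, red were called higher and blue lower, and the black bar is the list's median; rRNA processing and snoRNA hosts sit to the left of 0 and the lysosomal lists to the right.

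Growth and patterning signals were touched at several points. CCND2, cyclin D2 of the G1 phase, fell from 484 and 448 CPM to 272 and 269 CPM, -0.78 (SE 0.08, adjusted p = 5.62e-06). NKD2, an inhibitor of Dishevelled in the Wnt pathway, fell from 73.8 and 81.7 CPM to 52.6 and 51.5 CPM, -0.58 (SE 0.10, adjusted p = 9.41e-04). ADGRA2, a co-receptor for Wnt ligands, fell from 139.6 and 174 CPM to 99.9 and 97.5 CPM, -0.67 (SE 0.11, adjusted p = 5.60e-04). RSPO2, a secreted amplifier of Wnt signals, went the other way, from 20.8 and 20.9 CPM to 32.3 and 38.0 CPM, 0.75 (SE 0.12, adjusted p = 5.12e-04). FSTL3, which binds activins, rose from 23.8 and 24.9 CPM to 36.2 and 37.3 CPM, 0.60 (SE 0.11, adjusted p = 0.00209). NDRG1, a stress-induced gene, rose from 26.1 and 30.0 CPM to 49.0 and 48.7 CPM, 0.81 (SE 0.11, adjusted p = 1.24e-04). All 6 were steady. In the Wnt list 6 of 36 genes fell and 1 rose (19.4%, against 3.15% of all genes tested), with a median of -0.15. In other settings the Wnt genes that fell numbered 2 without 12 h replicate 1 and without 12 h replicate 2 and 10 with a GC offset. LGR5, a receptor for R-spondins, changed by -0.46 and LEF1, a nuclear Wnt effector, by -0.50. Among phosphatases that switch off ERK, DUSP9 changed by -0.94 and DUSP4 by 0.95. A library left out ended the call for LGR5 without 12 h replicate 1 or 2 (adjusted p = 0.154 and 0.1, all alternatives 1.63e-04 to 0.154), LEF1 without 12 h replicate 1 or 2 (adjusted p = 0.0514 and 0.0678, all alternatives 2.00e-05 to 0.0678), DUSP9 without 12 h replicate 2 (adjusted p = 0.0916, all alternatives 2.51e-05 to 0.0916) and DUSP4 without DMSO replicate 1 or 12 h replicate 1 (adjusted p = 0.0514 and 0.0682, all alternatives 1.46e-04 to 0.0682).

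The matrix and the cell surface changed gene by gene. KERA and EPYC, keratocan and epiphycan, are small leucine-rich proteoglycans that bind collagen. KERA fell from 159 and 131 CPM to 82.4 and 90.0 CPM, -0.75 (SE 0.10, adjusted p = 1.24e-04), and EPYC from 262 and 231 CPM to 171 and 165 CPM, -0.56 (SE 0.09, adjusted p = 7.23e-04). BGN, biglycan of the same family, fell from 29.9 and 36.5 CPM to 16.2 and 13.3 CPM. DCN, decorin, another member, was not called, at 537 and 464 CPM and 425 and 413 CPM (-0.26, SE 0.09, adjusted p = 0.127), though an alternative setting did call it. LUM, lumican, was not called either, at 1496 and 1256 CPM and 1499 and 1518 CPM (0.13, SE 0.09, adjusted p = 0.517). In this family, put together after its values were seen, 3 of the 5 members tested fell and 0 rose, against 3.15% of all genes tested that were called. This count is a description only. MMP2, a gelatinase, fell from 1231 and 1384 CPM to 936 and 838 CPM, -0.56 (SE 0.09, adjusted p = 5.35e-04). CD248, endosialin of stromal cells, fell from 82.3 and 99.9 CPM to 54.3 and 53 CPM, -0.76 (SE 0.12, adjusted p = 7.44e-04). CLEC11A and KAZALD1 encode secreted proteins of bone growth. CLEC11A fell from 54.5 and 63.4 CPM to 35.1 and 35 CPM (-0.74, SE 0.11, adjusted p = 2.14e-04), and KAZALD1 from 297 and 342 CPM to 202 and 196 CPM (-0.68, SE 0.10, adjusted p = 1.62e-04). Of these genes all except DCN and LUM were steady. KERA, EPYC, CD248, CLEC11A, KAZALD1, DCN and LUM were chosen after their values were seen.

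Some matrix genes rose in the same cells. COL5A3, a chain of type V collagen, went from 1.24 and 1.42 CPM to 7.27 and 5.63 CPM (2.28, SE 0.32, adjusted p = 1.62e-04), and DSEL, a dermatan sulfate epimerase, from 39.5 and 34.9 CPM to 55.5 and 56.8 CPM (0.59, SE 0.10, adjusted p = 0.00157). Both were steady. COL5A2, a partner chain, rose from 45.2 and 48.6 CPM to 69.9 and 62.5 CPM (0.50). COL4A5, a basement membrane chain, rose from 197 and 188 CPM to 262 and 261 CPM (0.44). The calls were lost for COL5A2 without 12 h replicate 1 (adjusted p = 0.155, all alternatives 1.89e-04 to 0.155) and COL4A5 without 12 h replicate 1 or 2 (adjusted p = 0.095 and 0.0835, all alternatives 2.31e-04 to 0.095). COL5A3 and COL5A2 were the 2 calls among 12 fibrillar and fibril-associated collagens (16.7%, against 3.15% of all genes tested). The median of these 12, 0.01, turned to -0.04 without 12 h replicate 1 and to -0.09 without DMSO replicate 1. MYH11, smooth muscle myosin, was steady and rose from 6.99 and 11 CPM to 17.6 and 17.9 CPM (1.03, SE 0.17, adjusted p = 8.69e-04). ADGRG6, an adhesion receptor known from myelinating Schwann cells, rose from 7.62 and 7.33 CPM to 15.7 and 14.4 CPM (1.00, SE 0.16, adjusted p = 6.85e-04).

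Neuronal genes moved in both directions, with steady genes on both sides. MAP2, which bundles dendritic microtubules, rose from 33.9 and 34.4 CPM to 63.2 and 55.8 CPM. KIF1A, a motor that carries synaptic vesicle precursors, rose from 78.8 and 85.3 CPM to 152 and 126 CPM, 0.76 (SE 0.10, adjusted p = 1.24e-04). The guidance cue SEMA3C rose from 99.7 and 97.8 CPM to 147 and 159 CPM, 0.63 (SE 0.09, adjusted p = 1.95e-04). RELN, reelin, which guides migrating neurons, rose from 23.8 and 20.7 CPM to 41.6 and 36.7 CPM, 0.81 (SE 0.12, adjusted p = 3.83e-04). SCN9A, a voltage-gated sodium channel, and UNC80, part of the sodium leak channel, rose by 1.18 and 1.42. The steady neuronal genes that fell were of other kinds. Here SEZ6, a dendritic membrane protein, stood at 46.9 and 37.5 CPM in DMSO and 18.3 and 9.54 CPM at 12 h. DDN, dendrin of the postsynaptic density, fell from 18.7 and 18.3 CPM to 7.94 and 9.54 CPM, -1.08 (SE 0.17, adjusted p = 5.35e-04). DNM3, a dynamin of synapses, fell from 149 and 125 CPM to 68.3 and 76.6 CPM, -0.92 (SE 0.11, adjusted p = 1.17e-05). KCTD12, a subunit of GABA-B receptors, fell from 47.9 and 49.1 CPM to 31.3 and 30.2 CPM, -0.65 (SE 0.11, adjusted p = 6.36e-04). JPH4, a junctophilin of neurons, fell from 97.9 and 109 CPM to 65.4 and 67.1 CPM, -0.64 (SE 0.09, adjusted p = 2.13e-04).

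The medians of the neuronal lists lay between -0.10 and 0.07. Among 30 sodium and calcium channel genes 3 rose and 2 fell (16.7%, against 3.15% of all genes tested). Neuronal cytoskeleton genes, 25 in number, gave 2 calls each way (16%), and 33 potassium and chloride channel genes gave 1 lower (3.03%). Of 49 axon guidance genes 4 rose and 0 fell (8.16%, against 3.15% of all genes tested). Their list had a median of -0.09, which turned to 0.03 without DMSO replicate 2. The number that rose was 1 without 12 h replicate 1 and without 12 h replicate 2 and 2 without DMSO replicate 2 and without 24 h replicate 1. Beside SEMA3C these were SEMA3E (0.43), SLIT2 (0.35) and ROBO2 (0.42), a ligand and a receptor of 1 repulsive pathway, and their calls were lost for SEMA3E without DMSO replicate 2 or 12 h replicate 1 or 2, or by DESeq2 (adjusted p of up to 0.222, all alternatives 0.00518 to 0.222), SLIT2 without DMSO replicate 1, 12 h replicate 1 or 2 or 24 h replicate 1 (adjusted p of up to 0.236, all alternatives 1.58e-04 to 0.236) and ROBO2 without DMSO replicate 2, 12 h replicate 1 or 2 or 24 h replicate 1 (adjusted p of up to 0.406, all alternatives 0.00976 to 0.406). Of 43 synaptic genes 5 fell and 3 rose (18.6%). The median of this list, -0.10, turned to 0.05 without DMSO replicate 2. The number that rose was 0 without 12 h replicate 1 and 5 without DMSO replicate 2 and 96 h replicate 2 together and with a GC offset, and the number that fell was 3 without 12 h replicate 1 and without 12 h replicate 2. NES, nestin of neural precursors, fell from 124 and 127 CPM to 85.7 and 86.6 CPM (-0.55), a call lost without 12 h replicate 1 (adjusted p = 0.0547, all alternatives 1.62e-05 to 0.0547).

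Lysosomal genes were called on the higher side only, by small steps. NEU1, the lysosomal sialidase, went from 45.3 and 44.9 CPM to 77.3 and 71.5 CPM, 0.72 (SE 0.11, adjusted p = 2.74e-04), and was the steady member. CTSA, cathepsin A, which protects NEU1 in a shared complex, went from 147 and 170.2 CPM to 219 and 208 CPM (0.43). CTSD, the protease cathepsin D, went from 30.8 and 36.8 CPM to 47.7 and 48.6 CPM (0.52), and HEXA, a hexosaminidase chain, from 88.9 and 89.2 CPM to 126 and 121 CPM (0.47). Of 38 hydrolases 7 rose and 0 fell (18.4%, against 3.15% of all genes tested). In this list 35 had a positive value, and the median was 0.21, positive under every scaling. The number that rose was 1 without 12 h replicate 1, 2 without 12 h replicate 2, 4 without DMSO replicate 1, 12 without DMSO replicate 2 and 96 h replicate 2 together and 16 with a GC offset. Of 27 genes of the lysosomal membrane and proton pump 3 rose (11.1%) and 0 fell, with a median of 0.16. This number was 0 without 12 h replicate 1 and without 12 h replicate 2, 1 without DMSO replicate 2, 5 without 96 h replicate 1 and 6 with a GC offset. GRN, progranulin, a partner of lysosomal enzymes, rose from 139 and 158 CPM to 227 and 208 CPM (0.55). FLCN, folliculin, a regulator of the lysosome's nutrient signal, rose from 73.5 and 75.1 CPM to 108 and 97.9 CPM (0.47). Outside NEU1 the calls were lost for CTSA without DMSO replicate 1 or 12 h replicate 1 or 2 (adjusted p = 0.0578, 0.154 and 0.0678, all alternatives 7.21e-05 to 0.154), CTSD without DMSO replicate 1 or 12 h replicate 1 or 2 (adjusted p = 0.0966, 0.12 and 0.148, all alternatives 8.76e-05 to 0.148) and HEXA without 12 h replicate 1 (adjusted p = 0.0772, all alternatives 8.27e-05 to 0.0772). They were lost also for GRN without 12 h replicate 1 (adjusted p = 0.114, all alternatives 4.30e-06 to 0.114) and FLCN without 12 h replicate 1 or 2 (adjusted p = 0.231 and 0.0693, all alternatives 5.21e-04 to 0.231).

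The same hexamer lies upstream of several lysosomal genes that rose, where it is also the core of the site that TFEB and its relatives can bind. The 250 bases before the RefSeq start on GRCh38.p14 are shown for the steady gene and its partner, with CACGTG in capitals.
NEU1, chr6:31862822-31863071, minus strand: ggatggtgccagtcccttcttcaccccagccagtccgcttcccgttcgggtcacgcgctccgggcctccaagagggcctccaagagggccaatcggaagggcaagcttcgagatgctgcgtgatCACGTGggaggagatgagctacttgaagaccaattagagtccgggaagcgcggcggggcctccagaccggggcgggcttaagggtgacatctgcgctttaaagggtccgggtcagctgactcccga
CTSA, chr20:45891085-45891334, plus strand: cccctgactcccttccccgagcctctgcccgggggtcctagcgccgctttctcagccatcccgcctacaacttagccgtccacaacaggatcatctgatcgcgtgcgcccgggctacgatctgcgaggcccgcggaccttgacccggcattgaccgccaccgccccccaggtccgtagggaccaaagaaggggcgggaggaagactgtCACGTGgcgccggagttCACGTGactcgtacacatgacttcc
For comparison with the 30-base stretches of the genes that fell, the same cut around the hexamer is shown for 2 more genes that rose.
CTSD, chr11:1763957-1763986, minus strand: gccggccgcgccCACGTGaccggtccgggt
ATP6V0B, chr1:43974891-43974920, plus strand: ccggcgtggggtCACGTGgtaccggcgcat

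NEU1 holds 1 hexamer, which begins 126 bases before the start, and CTSA holds 2, at 42 and 25 bases before it. In CTSD it begins 47 bases before the start, and ATP6V0B, a subunit of the proton pump, has 2, at 57 and 39 bases before it. ATP6V0B rose by 0.42, a call lost without DMSO replicate 2, 12 h replicate 1 or 2 or 24 h replicate 1 or 2, by DESeq2, or with no filter (adjusted p of up to 0.238, all alternatives 0.0107 to 0.238). The hexamer was found in 8 of 23 hydrolase genes with a window (34.8%) and in 7 of 20 of the membrane and pump list (35%), against 10.2% of the tested genes with a window. Among called members with a window it was in 3 of 4 hydrolases and 1 of 3 of the other list. A longer form, with 1 more fixed base on each side, was in 5 of 23 and 4 of 20 tested members. Of called members 1 of 4 and 0 of 3 held it. With 2 more fixed bases on each side the counts were 3 of 23 and 2 of 20 tested, and 0 of 4 and 0 of 3 called. In the stretches shown the letters lie before the start of genes that rose and after the start of genes that fell. IMP4 holds a further copy that begins 203 bases before its start. The stretches were picked from called genes that hold the hexamer, and its place in members not called was not examined. The place of the hexamer is therefore not read as tied to the direction of change. No binding was measured.

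Chromatin and germline genes gave a few single calls. PIWIL1, a germline protein that binds piRNAs, fell from 219 and 197 CPM to 117 and 120.0 CPM, -0.82 (SE 0.10, adjusted p = 2.10e-05). HMGA1, an architectural protein of chromatin, fell from 165 and 207 CPM to 114 and 111 CPM, -0.72 (SE 0.13, adjusted p = 0.00163). Both were steady and were chosen after their values were seen. HDAC5, a class IIa deacetylase, rose from 51.5 and 60.4 CPM to 79.4 and 83.9 CPM (0.55). Among 28 BAF subunits BICRAL, found with BRD9 in the non-canonical complex, rose from 78.7 and 78.4 CPM to 107 and 110.4 CPM (0.47). BCL11B was the 1 subunit called lower (-0.37). With 1 call each way, 7.14% of the list was called, against 3.15% of all genes tested. The calls were lost for HDAC5 without 12 h replicate 2 (adjusted p = 0.073, all alternatives 1.02e-05 to 0.073), BICRAL without 12 h replicate 1 or 2 (adjusted p = 0.0563 and 0.0895, all alternatives 3.16e-04 to 0.0895) and BCL11B without DMSO replicate 2, 12 h replicate 1 or 2, 24 h replicate 1 or 2 or 48 h replicate 1 or 2, by DESeq2, with library size only, with only the 2 groups fitted, or with upper-quartile factors (adjusted p of up to 0.346, all alternatives 0.00459 to 0.346). SS18, whose count can include reads of the fusion transcript, stood at 225 and 244 CPM in DMSO and 229.9 and 224 CPM at 12 h and was not called. SSX1, a gene of the SSX family, held 704 and 419 counts in DMSO and 373 and 407 at 12 h, before scaling for depth. It was not called here, though an alternative setting did call it. BICRA was not called here or in any alternative setting.

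Other steady genes belong to none of these groups. PTPN21, a cytoskeleton-bound tyrosine phosphatase, rose from 43.4 and 46.2 CPM to 69.4 and 74.0 CPM, 0.68 (SE 0.09, adjusted p = 1.39e-04), and SYDE2, a GTPase-activating protein, from 26.0 and 24.9 CPM to 39.0 and 41.4 CPM, 0.66 (SE 0.11, adjusted p = 9.41e-04). CPNE7, a calcium-dependent membrane binder of the copine family, fell from 40.3 and 53.9 CPM to 23.1 and 25 CPM, -0.95 (SE 0.13, adjusted p = 1.53e-04). TSPAN9, a tetraspanin, fell from 177 and 188 CPM to 123 and 112 CPM, -0.63 (SE 0.09, adjusted p = 2.41e-04). All 4 were chosen after their values were seen. IER5L, a relative of the immediate early gene IER5, fell from 58.4 and 59.2 CPM to 27.1 and 30.2 CPM, -1.04 (SE 0.11, adjusted p = 8.46e-06). Among non-coding genes LBX1-AS1 fell from 9.02 and 7.92 CPM to 2.35 and 3.33 CPM, -1.59 (SE 0.25, adjusted p = 4.89e-04), and FZD10-AS1 rose from 13.6 and 14.5 CPM to 26.3 and 26.2 CPM, 0.90 (SE 0.13, adjusted p = 1.53e-04). The strand setting of the counting is not given in the sources used here, so reads of these antisense genes and of genes that overlap them on the other strand may not have been kept apart.

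Several functions gave no call or 1 at 12 h. Of 46 genes of G1/S and DNA replication edgeR called 0, DESeq2 0 and limma-voom 0, with 2 at an unadjusted p under 0.05, and the median of 0.00 turned to -0.08 without 12 h replicate 1. Of 40 genes of G2/M and mitosis only the phosphatase CDC25B was called (-0.39), a call lost without DMSO replicate 2 or 12 h replicate 1 or 2, or with library size only (adjusted p of up to 0.241, all alternatives 0.00139 to 0.241). Of 31 proteasome genes 0 were called by edgeR, 0 by DESeq2 and 0 by limma-voom, 0 had an unadjusted p under 0.05, and the median was 0.05. The nuclear genes of the respiratory chain, 43 in number, gave 0 calls by edgeR, 0 by DESeq2 and 0 by limma-voom, with 4 at an unadjusted p under 0.05. With DMSO replicate 2 and 96 h replicate 2 both left out, or with a GC offset, each of these lists held 0 to 2 calls. With 3.15% of all genes called, lists of 31 to 46 genes would hold few calls, so these counts are near the background and do not show that the genes were unaffected.

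The 24 h libraries were the next ones taken, and set against the 12 h libraries they gave 0 calls by edgeR (0.0%), with 299 genes higher and 290 lower at an unadjusted p under 0.05, 1 call by DESeq2 and 0 by limma-voom. A fit of the 12 h and 24 h libraries alone called 37 higher and 41 lower. MYC stood at 144 and 136 CPM at 12 h and 142 and 129.7 CPM at 24 h. SCD stood at 1413 and 1129.6 CPM at 12 h, 1661 and 1668 CPM at 24 h, 2221 and 1921 CPM at 48 h and 1244 and 1165 CPM at 96 h, so its 48 h libraries lay above those at 12 h and its 96 h libraries within their range. HDAC5 stood at 59.2 and 61.2 CPM at 24 h and 43.6 and 45.7 CPM at 96 h, below its 12 h libraries. MAP2 stood at 66.8 and 62.8 CPM at 24 h and 89.4 and 90.9 CPM at 96 h, overlapping its 12 h libraries at 24 h and above them at 96 h. The comparison of 24 h with 12 h shares the 12 h libraries with that against DMSO, and the 48 and 96 h values are given as levels only.

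**Figure D4:**
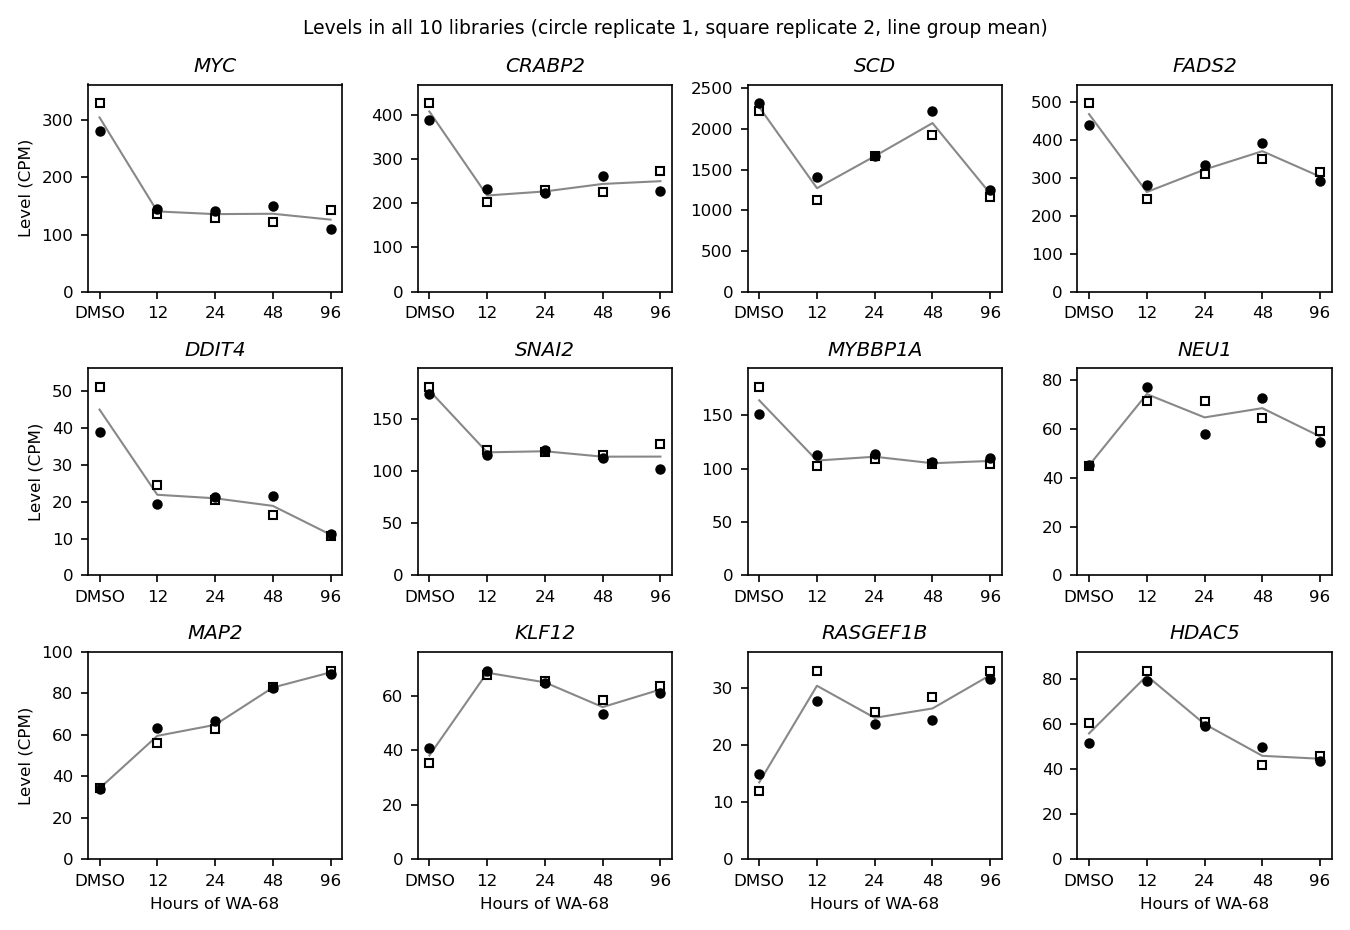
Levels in CPM of 12 genes in all 10 libraries, with DMSO at the left and the hours of WA-68 as evenly spaced categories, and with vertical axes that start at 0. Circles are replicate 1, squares replicate 2 and the line joins group means; MYC, CRABP2, SNAI2 and MYBBP1A stay below DMSO at each later time, SCD at 48 h lies above its 12 h level, and MAP2 is highest at 96 h.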

How the data were processed

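Poly(A)-selected, stranded paired-end libraries of HS-SY-II cells were sequenced on an Illumina NovaSeq X, per the labels' protocols. The table the authors deposited holds whole-number counts per gene for all 10 libraries, and the submitters' processing notes name Trim Galore, STAR, featureCounts and the build GRCh38. No source used here states their versions, the annotation release or the strand setting. Of 63140 identifiers 62541 were matched to a symbol, and 32684 had at least 1 count. Coordinates are GENCODE v29 on GRCh38.

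Genes passing edgeR's filter by group (16382) were fitted with edgeR 4.0.16 (R 4.3.3), TMM factors and the quasi-likelihood test over all 5 groups, with 5 residual degrees of freedom. Calls use Benjamini-Hochberg adjusted p under 0.05 over all genes. CPM use TMM effective library sizes. The fit was tested on counts simulated with 1 spread for all genes and no GC difference between replicates, unlike the real libraries. Of 200 genes changed there, it called 79.1% of those at 1.5-fold, 97.0% at 2-fold and 100% at 4-fold. It also called 10 genes that were not changed. DESeq2 1.42.0, limma-voom (limma 3.58.1), other scalings, filters, a GC offset, a replicate block and each library left out were alternatives. An exact permutation of 2 against 2 libraries cannot pass the threshold, so no single-value test was run.

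Members and gene lists were chosen with earlier results of these data known. Genes are named for the largest changes at a mean of at least 5 CPM, as the most abundant calls, as non-coding calls and as up to 4 called members of a list; the others, such as TWNK, METTL8, ZNF423, DNM3, KCTD12, JPH4, RELN, DSEL, ACADL, LTV1, PUS7, NOP14, IMP4, CTSD, RARB, LGR5 and RN7SL3, were chosen after their values were seen. Matching replicate numbers did not pair the DMSO and 12 h libraries, whose replicate 2 minus replicate 1 differences correlated at -0.0038. For the other pairs of groups the values ran from -0.123 (DMSO with 48 h) to 0.186 (DMSO with 96 h). Promoter windows hold 250 bases before and 50 after the RefSeq start. P-values measure the spread between cultures of 1 line.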

Additional observations from a re-analysis of the deposited data

How the results depend on the processing

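Main counts at 12 h were 201 genes higher and 315 lower. Other settings gave 133 higher by DESeq2, 489 higher and 650 lower with DMSO replicate 2 and 96 h replicate 2 both left out, 481 and 780 with a GC offset, 470 and 748 with a replicate block and GC offset, 173 lower with library size only, 483 lower with no filter, and 66 and 117 at an adjusted p under 0.01. The replicate block alone gave 186 higher and 282 lower, and among the genes named BCL11B, IMP4 and RN7SL3 were not called with it (adjusted p = 0.0609, 0.0616 and 0.0568). With 1 library left out at a time the counts ran from 34 to 266 higher and from 68 to 533 lower. Genes at least 2-fold higher numbered 15 by DESeq2, 20 with at least 5 CPM in 2 libraries and 14 at an adjusted p under 0.01, and 11 to 38 with 1 library left out. Those at least 2-fold lower numbered 20 by DESeq2 and 23 with at least 5 CPM, and 21 to 47 with 1 library left out. For 24 h against 12 h, with 0 calls, the higher side gave 1 by DESeq2, with a GC offset and with library size only, 16 with both libraries left out, 10 with no filter, 37 with only those 2 groups, 2 with a replicate block and GC offset, and 0 to 4 with 1 library left out. The lower side gave 1 with a GC offset, with no filter and with a replicate block and GC offset, 8 with both libraries left out, 41 with only those 2 groups, and 0 to 1 with 1 library left out. SS18, not called, had a log2 difference of -0.05, 0.00895 with both libraries left out, 0.0188 with library size only, and -0.107 to 0.0108 with 1 library left out. RN7SL3 ran from -0.271 without 12 h replicate 1 to 2.34 without 12 h replicate 2. The causes were not tested. With 2 libraries a group and 8556353 to 13200051 counts each, small changes may be missed, and low genes such as LIPG or MEST rest on few reads. A library left out leaves its group with 1 library, which is then assumed to vary like the other groups.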

Other observations

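Imprinted genes, a set of 33 drawn up after the values were seen, held 8 calls among the 21 that were tested, 4 higher and 4 lower, against 3.15% of all genes tested, and their median was -0.06. MEST, a hydrolase-like gene expressed from the paternal allele, rose from 0.699 and 0.827 CPM to 3.69 and 3.33 CPM, 2.20 (SE 0.39, adjusted p = 0.00175), and kept its call without each library. COPG2, a coat protein gene beside it on chromosome 7, rose from 50.1 and 52.6 CPM to 69.8 and 67.8 CPM (0.42). GENCODE v29 places MEST at chr7:130486171-130506465 on the plus strand and COPG2 at chr7:130506238-130668748 on the minus strand, and the strand setting of the counting is not given in the sources used here. On chromosome 14 DLK1, a Notch-family ligand, stood at 4.35 and 4.26 CPM in DMSO and 7.27 and 8.73 CPM at 12 h (0.89), and its neighbour RTL1, a retrotransposon-derived gene, at 5.83 and 11.8 CPM and 3.47 and 3.68 CPM (-1.24). On chromosome 7 PPP1R9A, neurabin, went from 23.9 and 18.6 CPM to 30.6 and 34.1 CPM (0.59), and its neighbour PEG10, also of retrotransposon origin, from 944 and 983 CPM to 777 and 783 CPM (-0.30). IGF2, a growth factor, went from 895 and 1121 CPM to 726 and 725 CPM (-0.47), and the non-coding H19 next to it from 1251 and 1488 CPM to 985 and 1047 CPM (-0.43). Neighbours lay on the same side in MEST with COPG2, in DLK1 with RTL1 and PPP1R9A with PEG10 on opposite sides, and in IGF2 with H19 both on the lower side. Calls were lost for COPG2 without 12 h replicate 1 or 2 (adjusted p = 0.161 and 0.105, all alternatives 8.42e-04 to 0.161), DLK1 without DMSO replicate 1 or 2 or 12 h replicate 1 or 2, or by DESeq2 (adjusted p of up to 0.262, all alternatives 0.0081 to 0.262), RTL1 without DMSO replicate 2 or 12 h replicate 1 or 2, with DMSO replicate 2 and 96 h replicate 2 both left out, or by limma-voom (adjusted p of up to 0.253, all alternatives 2.25e-05 to 0.253) and PPP1R9A without DMSO replicate 2 or 12 h replicate 1 or 2 (adjusted p = 0.0914, 0.0653 and 0.203, all alternatives 0.00171 to 0.203). They were lost too for PEG10 without DMSO replicate 2, 12 h replicate 1 or 2, 24 h replicate 1 or 2 or 48 h replicate 2, with library size only, or with upper-quartile factors (adjusted p of up to 0.305, all alternatives 0.00206 to 0.305), IGF2 without DMSO replicate 2 or 12 h replicate 1 or 2 (adjusted p = 0.104, 0.122 and 0.121, all alternatives 1.11e-07 to 0.122) and H19 without DMSO replicate 2 or 12 h replicate 1 or 2 (adjusted p = 0.148, 0.26 and 0.13, all alternatives 2.45e-07 to 0.26). The set was drawn up with these changes in view, so its count is a description only.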
